A study of Mus musculus with 53 samples.

Results

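The 8 genes described here are those that mark cholesterol synthesis and its regulator SREBP2 in mouse bone marrow-derived macrophages (BMDMs): Hmgcs1, Sqle, Idi1, Fdps, Fdft1, Cyp51, Insig1 and Srebf2. They were taken by gene symbol from the 23847 loci of the expression tables, each symbol matched 1 locus, and all 8 reached 1 FPKM in at least 1 sample, as did 11146 loci in all. FPKM (fragments per kilobase of transcript, relative to all mapped fragments) is a level scaled for transcript length and for the fragments mapped in the sample. BMDMs came from WT C57BL/6 mice and from Stat6-/- mice, a full-body knockout of the transcription factor that carries the IL-4 signal, all aged 8 to 12 weeks. Bone marrow was kept for 6 days in L929 supernatant, a source of the growth factor M-CSF, and every group shares that step. The macrophages then received IL-4, the cytokine of alternative (M2) polarization, at 20 ng/ml for 1, 3, 6 or 24 h, or stayed untreated for the same time, and a control was taken at 0 h. Each of the 9 WT groups held 4 samples, except IL-4 at 24 h, where 3 were analysed (replicates 2 to 4). Each of the 9 Stat6-/- groups held 2. The study describes its WT replicates as individual animals. The labels number the replicates without saying which animal a number stands for, and the p-values measure the spread between these 53 samples.

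Cholesterol is built from acetyl-CoA through mevalonate, isoprenoid diphosphates, squalene and lanosterol. SREBP2, the product of Srebf2, is held in the endoplasmic reticulum with its escort SCAP and the retention proteins INSIG1 and INSIG2 while sterols are plentiful. When sterols fall, SREBP2 moves to the Golgi, is cleaved, and its released part binds sterol regulatory elements, often beside NF-Y and Sp1 sites, in the promoters of the synthesis enzymes, of INSIG1 and of Srebf2 itself. Oxysterols such as 25-hydroxycholesterol hold the complex back and activate LXR, which drives cholesterol efflux in macrophages.

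Promoter sequences come from the tables of RefSeq promoters (build GRCm38.p6), since they are the regions through which SREBP2 and its partners are known to act. They are shown up to the earlier of the RefSeq and GENCODE starts, for members with an SRE-1 element or NF-Y box (given below) in that stretch. The NF-Y boxes of Idi1 (at −45 and −14) and Cyp51 (at −29) lie before the RefSeq start but after the GENCODE start, so these members are not shown. The table held a window from 250 bases before to 50 bases after the start for 5 of the 8 members, which were Hmgcs1, Idi1, Cyp51, Insig1 and Srebf2. All 3 stretches printed lie on the plus strand, at chr13:119690101-119690350 (Hmgcs1), chr5:28071162-28071362 (Insig1) and chr15:82147019-82147180 (Srebf2). Capitals mark the SRE-1 element (TCACNCCAC) and the NF-Y box (CCAAT, which reads ATTGG on the other strand).
Hmgcs1: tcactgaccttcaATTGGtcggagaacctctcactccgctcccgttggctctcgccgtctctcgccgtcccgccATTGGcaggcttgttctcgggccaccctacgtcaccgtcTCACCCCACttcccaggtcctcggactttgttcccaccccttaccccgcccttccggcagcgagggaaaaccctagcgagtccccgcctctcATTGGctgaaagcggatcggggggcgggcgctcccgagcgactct
Insig1: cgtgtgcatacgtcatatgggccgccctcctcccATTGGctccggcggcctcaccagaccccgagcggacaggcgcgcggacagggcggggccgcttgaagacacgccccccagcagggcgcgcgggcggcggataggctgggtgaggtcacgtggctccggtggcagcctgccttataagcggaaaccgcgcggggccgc
Srebf2: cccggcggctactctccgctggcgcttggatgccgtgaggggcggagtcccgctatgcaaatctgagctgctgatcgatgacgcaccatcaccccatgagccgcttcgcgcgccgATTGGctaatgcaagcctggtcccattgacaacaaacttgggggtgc
The Hmgcs1 stretch held 1 SRE-1 element and 3 NF-Y boxes, and the Insig1 and Srebf2 stretches held 1 NF-Y box each. Over the whole 300-base windows, with both strands searched, SRE-1 was found in Hmgcs1 and in none of the other 4 members. Only exact matches were sought, so elements that differ from TCACNCCAC were not counted. All 5 windows held an NF-Y box (4 boxes in Hmgcs1, 2 in Idi1, 1 in each of the others) and a Sp1 box (GGGCGG), of which Srebf2 had 5, Hmgcs1 and Insig1 3 each, and Idi1 and Cyp51 1 each. Of all 32851 promoters in that table, 1.24% held SRE-1, 37.4% the NF-Y box and 35.7% the Sp1 box. The palindromes to which STAT6 binds, TTC and GAA set 4 bases apart (TTCNNNNGAA) or 3 apart (TTCNNNGAA), were in none of the 5 windows and in 6.95% and 8.30% of all promoters. These matches describe letters in a window and say nothing about binding.

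The libraries were read first against their labels. Stat6 was at 58.7 to 90.6 FPKM in the 35 WT samples and at 14.3 to 24.0 FPKM in the 18 Stat6-/- samples, so the genotypes did not overlap and reads over the locus remained in the knockout. Relative depth, recovered from low loci, ran from 0.706 to 1.53 times that of the median sample, and the absolute depth is unknown. The 6 macrophage markers were above 1 FPKM in all 53 samples, but at different levels. Csf1r was at 609.8 to 1081 FPKM, Fcgr1 at 15.99 to 553 FPKM and Mertk, the lowest, at 4.598 to 28.44 FPKM. Neutrophil markers were present too, from Elane (2.405 to 13.42 FPKM) to S100a8 (80.7 to 477.7 FPKM). Each lymphocyte, fibroblast and erythroid marker measured stayed under 1 FPKM in all 53 samples. So did the dendritic markers apart from Ccr7, which reached 6.63 FPKM. These are bulk samples, in which fewer cells of a type and less RNA per cell cannot be told apart.

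In WT macrophages all 8 genes stood far higher after 24 h of IL-4 than in the 24 h controls, by 2.62-fold (Srebf2) to 7.14-fold (Sqle) in mean FPKM. With all samples taken as independent, none passed the test at 1 or 3 h, and at 6 h only Hmgcs1 did. When replicate number entered the fit as a block, 1 gene passed at 1 h and 3 at 6 h. Without IL-4 all 8 genes fell below their 0 h level over the same 24 h. In Stat6-/- macrophages none of the 8, nor any other locus, passed the test with IL-4 at any time. All 8 responses at 24 h differed between the genotypes. The levels are plotted by group for each gene.

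**Figure D1:**
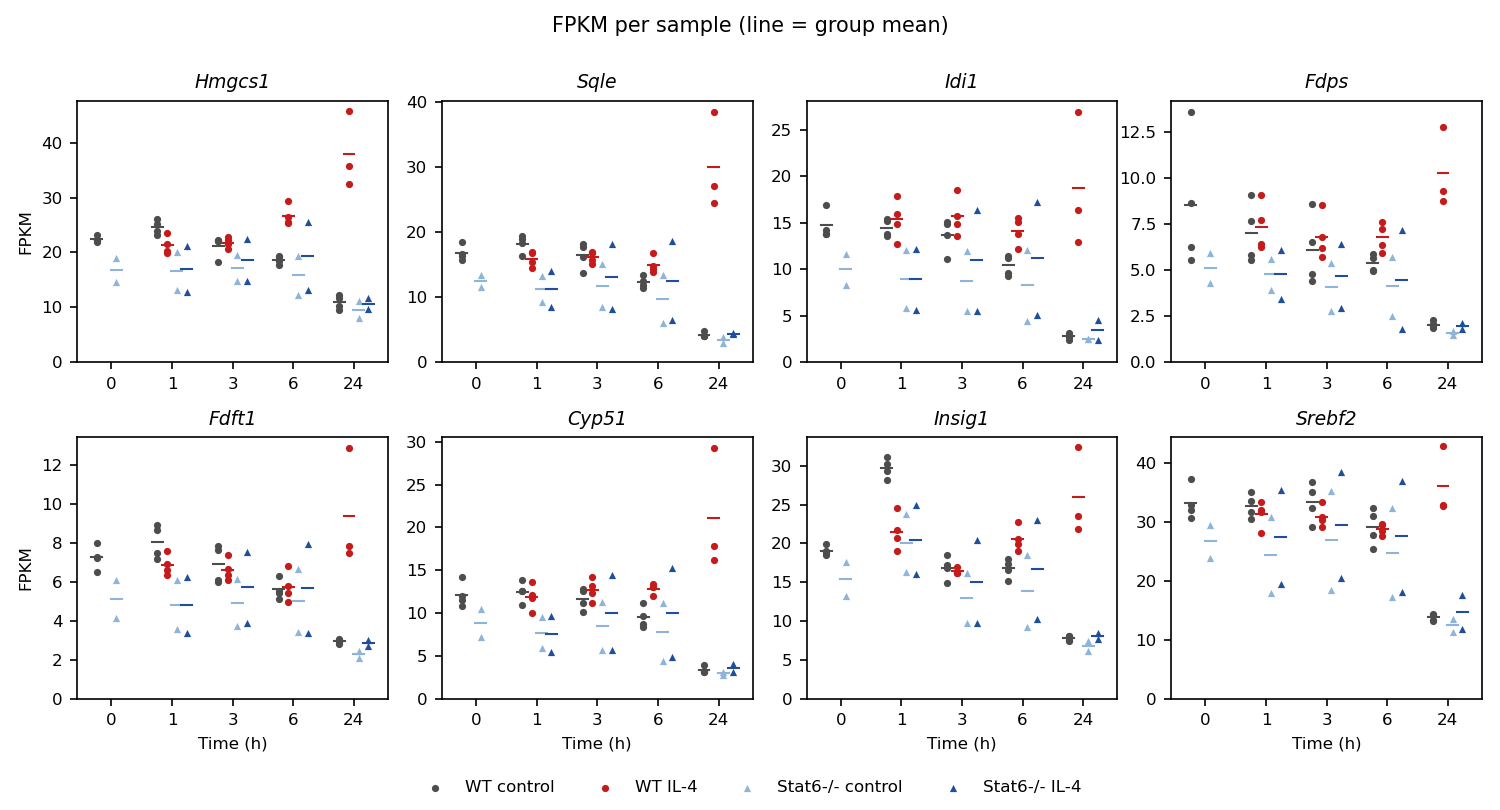
FPKM of the 8 genes (1 panel each, y axis, linear from 0) against time (x axis, 0, 1, 3, 6 and 24 h at equal steps), in WT and Stat6-/- BMDMs with and without IL-4; points are single samples and short lines mark group means. At 24 h the WT samples with IL-4 stand above every other 24 h sample in all 8 panels (Sqle at 24.5 to 38.4 FPKM against 3.97 to 4.77 FPKM in WT controls), and the untreated samples of both genotypes are low.

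All changes below are differences between group means of log2(FPKM + 1), which understates the change of low genes, tested with limma, with Benjamini-Hochberg adjustment over the 11146 loci. At 24 h in WT, 8 of 8 genes were higher with IL-4 at an adjusted p under 0.05, against 23.4% of all loci tested, and 8 of 8 also rose at least 2-fold, against 3.91% of loci. Their lowest IL-4 sample lay above their highest control sample in 8 of 8, against 27.4% of loci. The median change of the 8 was 1.79, beside −0.07 over all loci. Under each alternative run, including those without 1 library, the count was 8.

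Hmgcs1 encodes the HMG-CoA synthase of the cytosol, an early step of the mevalonate pathway. Its 24 h WT controls held 9.59, 10.2, 12.2 and 11.8 FPKM, and the samples given IL-4 held 45.8, 35.8 and 32.5 FPKM. Every treated sample was thus well above every control, and the change was 1.70 (SE 0.17, limma, adjusted p = 7.67e-11). In WT controls the mean was 22.4 ± 0.594 FPKM at 0 h, 24.6 ± 1.30 after 1 h, 21.1 ± 1.91 after 3 h, 18.7 ± 0.787 after 6 h and 11.0 ± 1.25 after 24 h (SD, n = 4). With IL-4 it was 21.3 ± 1.68 FPKM at 1 h, 21.8 ± 0.966 at 3 h and 26.7 ± 1.91 at 6 h (SD, n = 4), and 38.0 ± 6.92 at 24 h (SD, n = 3). The control mean was thus lowest, and the treated mean highest, at 24 h. In Stat6-/- cells at 24 h the controls held 11.2 and 7.98 FPKM and the treated samples 11.6 and 9.67 FPKM, which overlap. Before 24 h the 2 Stat6-/- replicates held 14.7 and 19.0 FPKM at 0 h and between 12.3 and 25.5 FPKM at 1 to 6 h.

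The next steps make the isoprenoids. Idi1, the isopentenyl diphosphate isomerase, held 2.74, 3.11, 2.86 and 2.40 FPKM in the 24 h WT controls and 26.9, 16.4 and 13.0 FPKM with IL-4. The treated samples differed widely among themselves but all lay above the controls, with a change of 2.33 (SE 0.30, limma, adjusted p = 4.16e-08). Mean Idi1 in WT controls was 14.7 ± 1.51 FPKM at 0 h, 14.5 ± 0.926 after 1 h, 13.6 ± 1.85 after 3 h, 10.4 ± 1.11 after 6 h and 2.78 ± 0.292 after 24 h (SD, n = 4). Under IL-4 it was 15.4 ± 2.14 FPKM at 1 h, 15.7 ± 2.10 at 3 h and 14.1 ± 1.52 at 6 h (SD, n = 4), and 18.7 ± 7.25 at 24 h (SD, n = 3). Stat6-/- samples held 2.46 and 2.53 FPKM in the 24 h controls and 2.39 and 4.58 FPKM with IL-4, with 8.28 and 11.7 FPKM at 0 h and 4.39 to 17.2 FPKM at 1 to 6 h. Of the treated Stat6-/- samples at 24 h only replicate 2 lay above the untreated ones.

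Fdps, the farnesyl diphosphate synthase, held 2.04, 2.29, 1.85 and 1.98 FPKM in the WT controls at 24 h and 12.8, 9.27 and 8.72 FPKM with IL-4, with no overlap and a change of 1.87 (SE 0.27, limma, adjusted p = 3.89e-07). At 0 h its 4 WT samples spread widely, at 13.6, 8.65, 6.28 and 5.54 FPKM. WT control means were 8.52 ± 3.64 FPKM at 0 h, 7.03 ± 1.67 after 1 h, 6.08 ± 1.92 after 3 h, 5.37 ± 0.459 after 6 h and 2.04 ± 0.187 after 24 h (SD, n = 4). IL-4 means were 7.36 ± 1.32 FPKM at 1 h, 6.82 ± 1.23 at 3 h and 6.79 ± 0.765 at 6 h (SD, n = 4), and 10.3 ± 2.20 at 24 h (SD, n = 3). The Stat6-/- controls at 24 h held 1.71 and 1.50 FPKM and the treated samples 1.82 and 2.11 FPKM, which is a narrow gap, and at 0 to 6 h the Stat6-/- samples lay between 1.78 and 7.15 FPKM. The Fdps values are uncertain, because 86.4% of the 50-base stretches of its longest coding transcript in GENCODE also occur in other genes (51.1% in genes outside its own locus).

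Fdft1, squalene synthase, commits isoprenoids to sterols. It held 2.92, 2.79, 3.04 and 3.01 FPKM in the 24 h WT controls and 12.9, 7.81 and 7.46 FPKM with IL-4, and the change was 1.36 (SE 0.20, limma, adjusted p = 5.97e-07). The controls here were tight and the treated samples were not, replicate 2 being the high one. Its WT control means were 7.24 ± 0.607 FPKM at 0 h, 8.05 ± 0.855 after 1 h, 6.88 ± 1.00 after 3 h, 5.60 ± 0.494 after 6 h and 2.94 ± 0.109 after 24 h (SD, n = 4). With IL-4 the means were 6.85 ± 0.532 FPKM at 1 h, 6.59 ± 0.560 at 3 h and 5.74 ± 0.778 at 6 h (SD, n = 4), and 9.38 ± 3.03 at 24 h (SD, n = 3). Among Stat6-/- samples the 24 h controls held 2.43 and 2.11 FPKM and the treated ones 2.71 and 3.00 FPKM, against 4.14 and 6.07 FPKM at 0 h and 3.35 to 7.95 FPKM at 1 to 6 h. At 10.9% of its 50-base stretches Fdft1 matches another gene, and at 21.3% Idi1 does, so part of their signal may be shared.

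Sqle, squalene epoxidase, catalyses the first oxygenation of the pathway and is one of its rate-limiting steps. It showed the largest change of the 8, from 3.97, 4.03, 4.77 and 4.02 FPKM in the 24 h WT controls to 38.4, 27.0 and 24.5 FPKM with IL-4 (change 2.55, SE 0.23, limma, adjusted p = 5.36e-12). No treated sample came near a control. Control means in WT were 16.8 ± 1.17 FPKM at 0 h, 18.2 ± 1.37 after 1 h, 16.4 ± 1.98 after 3 h, 12.2 ± 0.924 after 6 h and 4.20 ± 0.385 after 24 h (SD, n = 4). Treated means were 15.9 ± 1.14 FPKM at 1 h, 16.1 ± 0.867 at 3 h and 15.0 ± 1.31 at 6 h (SD, n = 4), and 30.0 ± 7.42 at 24 h (SD, n = 3). Stat6-/- samples at 24 h held 3.84 and 3.01 FPKM untreated and 4.27 and 4.42 FPKM with IL-4, all near the WT control level, after 11.5 and 13.3 FPKM at 0 h and 6.06 to 18.6 FPKM at 1 to 6 h.

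Cyp51, lanosterol 14-alpha-demethylase, acts after the ring has closed. Its 24 h WT controls held 3.11, 3.22, 3.88 and 3.07 FPKM and the treated samples 29.2, 17.8 and 16.1 FPKM, again without overlap, with a change of 2.31 (SE 0.26, limma, adjusted p = 1.89e-09). Control means were 12.1 ± 1.47 FPKM at 0 h, 12.5 ± 1.20 after 1 h, 11.7 ± 1.29 after 3 h, 9.48 ± 1.22 after 6 h and 3.32 ± 0.380 after 24 h (SD, n = 4). Means with IL-4 were 11.9 ± 1.49 FPKM at 1 h, 12.7 ± 1.28 at 3 h and 12.9 ± 0.620 at 6 h (SD, n = 4), and 21.1 ± 7.12 at 24 h (SD, n = 3). The Stat6-/- samples held 2.80 and 3.08 FPKM untreated and 3.11 and 4.05 FPKM treated at 24 h, 7.25 and 10.5 FPKM at 0 h, and 4.40 to 15.2 FPKM at 1 to 6 h. The 4 Stat6-/- samples at 24 h all lay below the lowest Stat6-/- sample of the earlier times.

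Insig1, the retention protein of the SREBP–SCAP complex and itself a target of SREBP2, held 7.42, 7.60, 8.12 and 8.02 FPKM in the 24 h WT controls and 32.4, 23.6 and 21.9 FPKM with IL-4 (change 1.60, SE 0.20, limma, adjusted p = 2.00e-08). At 1 h its samples separated. Untreated WT samples held 18.5, 19.9, 18.8 and 19.0 FPKM at 0 h but 30.2, 29.3, 28.1 and 31.1 FPKM at 1 h, and those given IL-4 held 24.5, 21.8, 19.1 and 20.7 FPKM at 1 h. The 1 h controls thus stood above both the 0 h and the 1 h IL-4 samples with no overlap. Neither gap passed the test, with 0.61 (SE 0.19, limma, adjusted p = 0.0761) for the 1 h control against 0 h and −0.45 (SE 0.19, limma, adjusted p = 0.144) for IL-4 against control at 1 h. Both did pass when only the groups compared were fitted (adjusted p of 0.0268 and 0.00394), when replicate number entered as a block (0.00213 and 0.00894) and, in a fit chosen after seeing the data, with WT samples only (3.78e-05 and 0.000137). Beside the first, 1.44% of all loci were higher without overlap. In Stat6-/- cells Insig1 was at 16.3 and 23.7 FPKM in the 1 h controls and at 16.01 and 24.9 FPKM with IL-4, with no gap between treatments. The untreated Stat6-/- mean was nonetheless higher at 1 h (20.0 FPKM) than at 0 h (15.4 FPKM), with overlap of the samples. Later WT control means were 16.8 ± 1.52 FPKM at 3 h, 16.8 ± 1.22 at 6 h and 7.79 ± 0.336 at 24 h (SD, n = 4), and those with IL-4 were 16.4 ± 0.353 at 3 h and 20.6 ± 1.60 at 6 h (SD, n = 4), and 25.9 ± 5.63 at 24 h (SD, n = 3). Stat6-/- samples held 13.2 and 17.5 FPKM at 0 h, 9.17 to 23.1 FPKM at 3 and 6 h, and at 24 h 7.36 and 6.08 FPKM untreated against 7.64 and 8.48 FPKM treated.

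Srebf2 itself, the gene for the regulator, held 14.4, 13.1, 14.2 and 13.4 FPKM in the 24 h WT controls and 42.8, 32.9 and 32.7 FPKM with IL-4 (change 1.32, SE 0.21, limma, adjusted p = 2.17e-06). All treated samples were higher, and this was the smallest change of the 8. Up to 6 h its WT means were nearly level with and without IL-4. The controls averaged 33.2 ± 2.87 FPKM at 0 h, 32.7 ± 2.05 after 1 h, 33.3 ± 3.35 after 3 h, 29.1 ± 3.18 after 6 h and 13.8 ± 0.626 after 24 h (SD, n = 4). The treated samples averaged 31.3 ± 2.19 FPKM at 1 h, 30.9 ± 1.79 at 3 h and 28.8 ± 0.977 at 6 h (SD, n = 4), and 36.1 ± 5.80 at 24 h (SD, n = 3). The 24 h control mean was the one that stood apart from the rest. Stat6-/- samples held 11.4 and 13.6 FPKM untreated and 11.8 and 17.5 FPKM treated at 24 h, 23.9 and 29.5 FPKM at 0 h, and 17.2 to 38.4 FPKM at 1 to 6 h.

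**Figure D2:**
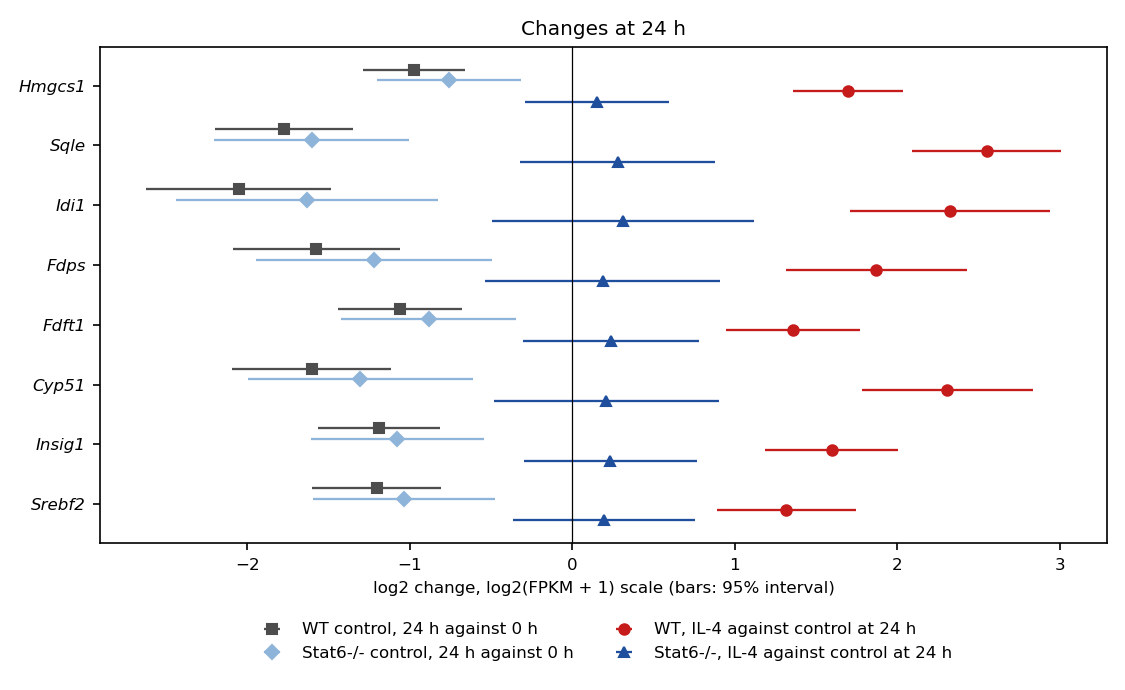
Differences in mean log2(FPKM + 1) for the 8 genes, with bars for the 95% confidence interval from limma, for IL-4 against control at 24 h and for the 24 h against the 0 h control, in WT and in Stat6-/-. The responses to IL-4 at 24 h run from 1.32 to 2.55 in WT and from 0.15 to 0.31 in Stat6-/-, where all 8 intervals include 0.

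At 6 h in WT, 1 of the 8 genes was higher with IL-4, against 22.0% of all loci. That gene was Hmgcs1, with 19.4, 19.1, 18.4 and 17.7 FPKM in the controls and 26.5, 25.3, 29.4 and 25.5 FPKM with IL-4 (change 0.49, SE 0.15, limma, adjusted p = 0.00959). For 6 of the 8 the lowest treated sample lay above the highest control, against 23.8% of loci, and the other 5 of these were Sqle (0.27), Idi1 (0.41), Fdps (0.29), Cyp51 (0.41) and Insig1 (0.28), with adjusted p of 0.178 to 0.386. The count past the test was 6 when only the 2 groups compared were fitted, 5 with WT samples only, 3 when replicate number entered as a block and 0 by a 2-way analysis of variance with Tukey's test on each gene. At 1 and 3 h 0 of 8 genes passed the test in WT (limma, lowest adjusted p of 0.144 and 0.705), against 9.39% and 28.9% of loci in either direction, and 1 and 0 of them had an unadjusted p under 0.05. The 1 h gene was Insig1, whose treated samples lay below the controls, as did those of 7.81% of loci.

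Over time without IL-4 the WT levels fell. At 24 h 8 of 8 genes were lower than at 0 h, against 11.6% of all loci, and 7 of 8 by at least 2-fold, against 0.754% of loci. Changes were −0.97 for Hmgcs1, −1.06 for Fdft1, −1.19 for Insig1, −1.20 for Srebf2, −1.57 for Fdps, −1.60 for Cyp51, −1.77 for Sqle and −2.05 for Idi1 (SE 0.15 to 0.28, limma, adjusted p from 1.31e-07 to 9.96e-05). In mean FPKM the 0 h level was 2.05-fold (Hmgcs1) to 5.29-fold (Idi1) that of the 24 h control. No 24 h control sample reached the lowest 0 h sample of its gene in any of the 8, against 15.7% of loci. At 1, 3 and 6 h 0 of 8 controls had passed the test (limma, lowest adjusted p of 0.0761, 0.912 and 0.618), against 2.0%, 0.144% and 0.135% of loci in either direction. By 6 h, however, the controls of 5 of the 8 lay wholly below the 0 h samples, against 3.33% of loci.

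The response to IL-4 at 24 h and this fall share the same 4 control samples, so they are not independent. Set against the 0 h control instead, WT macrophages after 24 h of IL-4 were higher for 3 of the 8 genes, against 21.1% of loci. These were Hmgcs1 (0.72, SE 0.17, limma, adjusted p = 0.000382), Sqle (0.78, SE 0.23, adjusted p = 0.00367) and Cyp51 (0.71, SE 0.26, adjusted p = 0.0205). Without replicate 2 of the 24 h IL-4 samples, the highest of the 3 for all 8 genes, Cyp51 lost its call (adjusted p = 0.184) and 2 genes remained called. For the other 5 the differences were 0.41 (Insig1), 0.30 (Fdft1), 0.30 (Fdps), 0.27 (Idi1) and 0.11 (Srebf2), with adjusted p of 0.0835 to 0.672. The interval for Srebf2 ran from −0.32 to 0.54, which leaves room for a modest change either way. The count was 5 with WT samples only and also 5 when replicate number entered as a block, both adding Insig1 (adjusted p of 0.000251 and 0.00877) and Fdft1 (0.0313 and 0.0408). Insig1 also passed with only the groups compared (adjusted p = 0.0231) and under median-of-ratios scaling (0.52, adjusted p = 0.0369).

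The Stat6-/- samples address whether the response to IL-4 requires STAT6. With IL-4 0 of 8 genes passed the test at each of the 4 times (limma, every adjusted p = 1), against 0.0% of all loci in this genotype. None of the 8 had an unadjusted p under 0.05 at any time. At the successive times 51, 131, 88 and 37 of all loci did (0.458%, 1.18%, 0.79% and 0.332%). A share near 0.05 would be expected if nothing changed, so this fit was strict in Stat6-/-. Its 0 counts therefore cannot show that there was no response. The 24 h changes ran from 0.15 (Hmgcs1) to 0.31 (Idi1), and the 95% intervals reached up to 1.12 for Idi1, so with 2 samples a group a change of about 2-fold could not be told from 0 in that gene. That interval is from the fit that takes all samples as independent. With replicate number as a block, the SE for Idi1 was 0.21 in place of 0.40. Both treated samples exceeded both controls in 5 of 8 genes, against 4.4% of loci. The response in WT minus that in Stat6-/- at 24 h was above 0 for 8 of 8 genes, against 12.2% of loci, and by more than 2-fold in 8 of 8, against 3.34%. It was 2.27 for Sqle, 2.10 for Cyp51, 2.01 for Idi1, 1.69 for Fdps, 1.55 for Hmgcs1, 1.36 for Insig1 and 1.12 for both Fdft1 and Srebf2 (SE 0.28 to 0.50, limma, adjusted p from 1.32e-05 to 0.0144). At 1, 3 and 6 h 0 of 8 responses differed between genotypes (lowest adjusted p of 0.775, 0.826 and 0.624), against 3.36%, 11.2% and 16.5% of loci, and 0 had an unadjusted p under 0.05. Leaving out replicate 1 of the Stat6-/- IL-4 samples at 24 h ended the call for Srebf2 (0.85, adjusted p = 0.0894), and leaving out replicate 1 of the Stat6-/- controls at 24 h ended it for Fdft1 (1.05, adjusted p = 0.0672).

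At 0 h the Stat6-/- samples were on average lower than WT by 0.31 to 0.58 for all 8 genes, but 0 of 8 passed the test (limma, lowest adjusted p = 0.318), against 2.18% of loci in either direction, and 1 had an unadjusted p under 0.05. In 7 of 8 both Stat6-/- samples lay below all 4 WT samples, against 11.3% of loci. Untreated Stat6-/- cells were lower at 24 h than at 0 h, with changes of −1.63 for Idi1 (adjusted p = 0.0382), −1.60 for Sqle (adjusted p = 0.00519) and −1.08 for Insig1 (adjusted p = 0.0394) past limma's test, which is 3 of 8 against 0.565% of loci. The remaining 5 changed by −0.76 (Hmgcs1) to −1.31 (Cyp51), with adjusted p of 0.058 to 0.112, and in 8 of 8 both 24 h samples lay below both 0 h samples, against 19.2% of loci. This count moved to 8 with the replicate number as a block (adjusted p up to 0.00298), to 1 under either other scaling, to 0 when only these 4 samples were fitted, and to 0 without replicate 2 of the Stat6-/- controls at 0 h. At 24 h the untreated genotypes differed in 0 of 8 genes (limma, every adjusted p = 1), against 0.108% of loci, and in 0 by an unadjusted p under 0.05. In 4 of 8 both Stat6-/- samples lay below all 4 WT samples, against 6.94% of loci.

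The 2 Stat6-/- replicates stood apart before 24 h. Replicate 2 was above replicate 1 for 8 of 8 genes in each of the 7 groups at 0 to 6 h, by a median of 1.36-fold at 0 h and 2.61-fold at 6 h with IL-4. At 24 h it was above in 3 of 8 genes without IL-4 and in 7 of 8 with it, with median ratios of 0.870 and 1.13. The cell-cycle markers ran the other way, with a median ratio of replicate 2 to replicate 1 of 0.543 to 0.614 at 0 to 6 h and of 1.84 and 1.73 at 24 h. Their part in the result was not tested. Single macrophage markers also differed between the replicates, with ratios of 0.686 to 3.52 at 0 h and 0.647 to 5.18 at 6 h with IL-4, while their median ratios were 1.01 and 0.891. Within replicate 2, every one of the 8 genes was higher with IL-4 at 1, 3, 6 and 24 h. Sqle went from 13.4 to 18.6 FPKM at 6 h and from 3.01 to 4.42 FPKM at 24 h. Srebf2 went from 32.4 to 36.9 FPKM at 6 h and from 13.6 to 17.5 FPKM at 24 h. Replicate 1 rose less at 6 h (Sqle 6.06 to 6.50 FPKM, Srebf2 17.2 to 18.1 FPKM), and its Fdps and Fdft1 were lower with IL-4. At 24 h its Sqle went from 3.84 to 4.27 FPKM and its Srebf2 from 11.4 to 11.8 FPKM, and its Idi1 was lower. These are single libraries, and the difference was not tested.

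**Figure D3:**
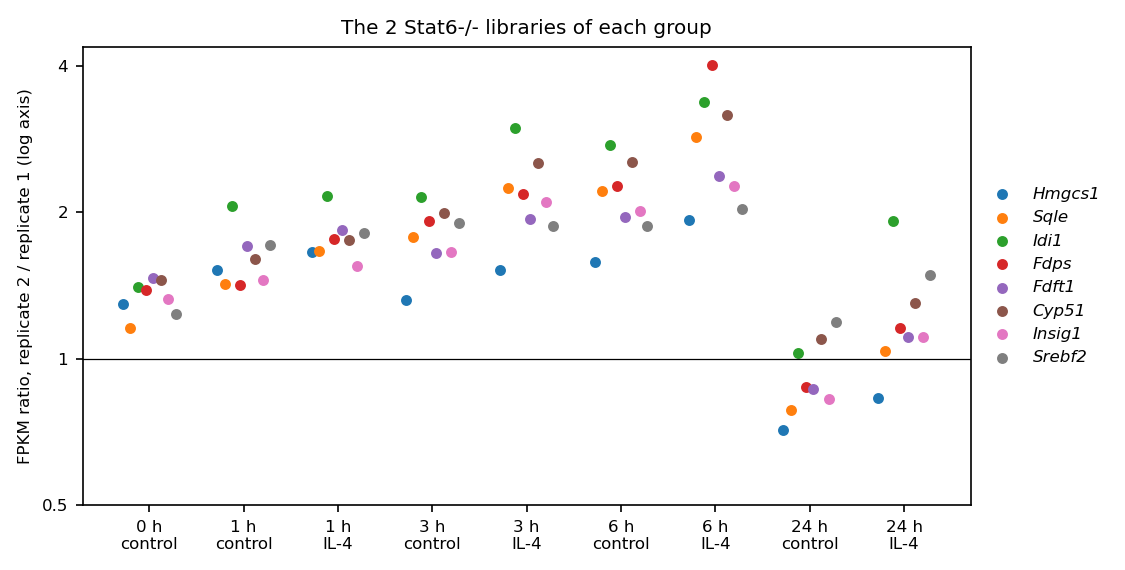
Ratio of replicate 2 to replicate 1 in FPKM (log axis) for each of the 8 genes (points) in the 9 Stat6-/- groups, one colour per gene. Every point lies above 1 at 0 to 6 h, up to 4.02 for 1 gene at 6 h with IL-4, and the points fall to both sides of 1 at 24 h.

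Ordered by mean FPKM over the 18 groups, the untreated Stat6-/- samples at 24 h were lowest for all 8 genes. WT with 24 h of IL-4 was highest for 7 of 8. The exception was Insig1, whose 1 h WT control (29.7 FPKM) stood above it (25.9 FPKM). From lowest to highest group the means spanned 2.90-fold (Srebf2) to 8.76-fold (Sqle). Most neighbours in that order did not differ beyond their spread, since 14 to 17 of the 17 adjacent pairs of groups overlapped in their samples. Across the 18 group means, the 28 pairs of genes had Pearson correlations of 0.88 to 0.99 (median 0.965) on the log2 scale. That describes groups that share libraries, replicate structure and time course, and it carries no test.

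The other genes of sterol metabolism were counted by list. Of the 16 other cholesterol synthesis genes, 13 were higher and 1 lower with 24 h of IL-4 in WT, against 23.4% higher and 31.6% lower of all loci, with a median change of 0.94. They include Mvd, mevalonate diphosphate decarboxylase (1.65, SE 0.15), and Hsd17b7, a 3-ketosteroid reductase (1.55, SE 0.20), with limma adjusted p of 1.11e-11 and 5.21e-08. The gene that fell was Lbr, which encodes both a sterol reductase and the lamin B receptor of the nuclear envelope (−1.38, SE 0.16, adjusted p = 5.43e-09). In untreated WT cells 14 of the 16 were lower at 24 h than at 0 h, against 11.6% of loci, and 0 were higher. The differences between genotypes in the 24 h response passed for 9 higher, against 12.2% of loci, and 1 lower. At 6 h 3 of the 16 were higher with IL-4, which is near the 22.0% of all loci, and 1 was lower.

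**Figure D4:**
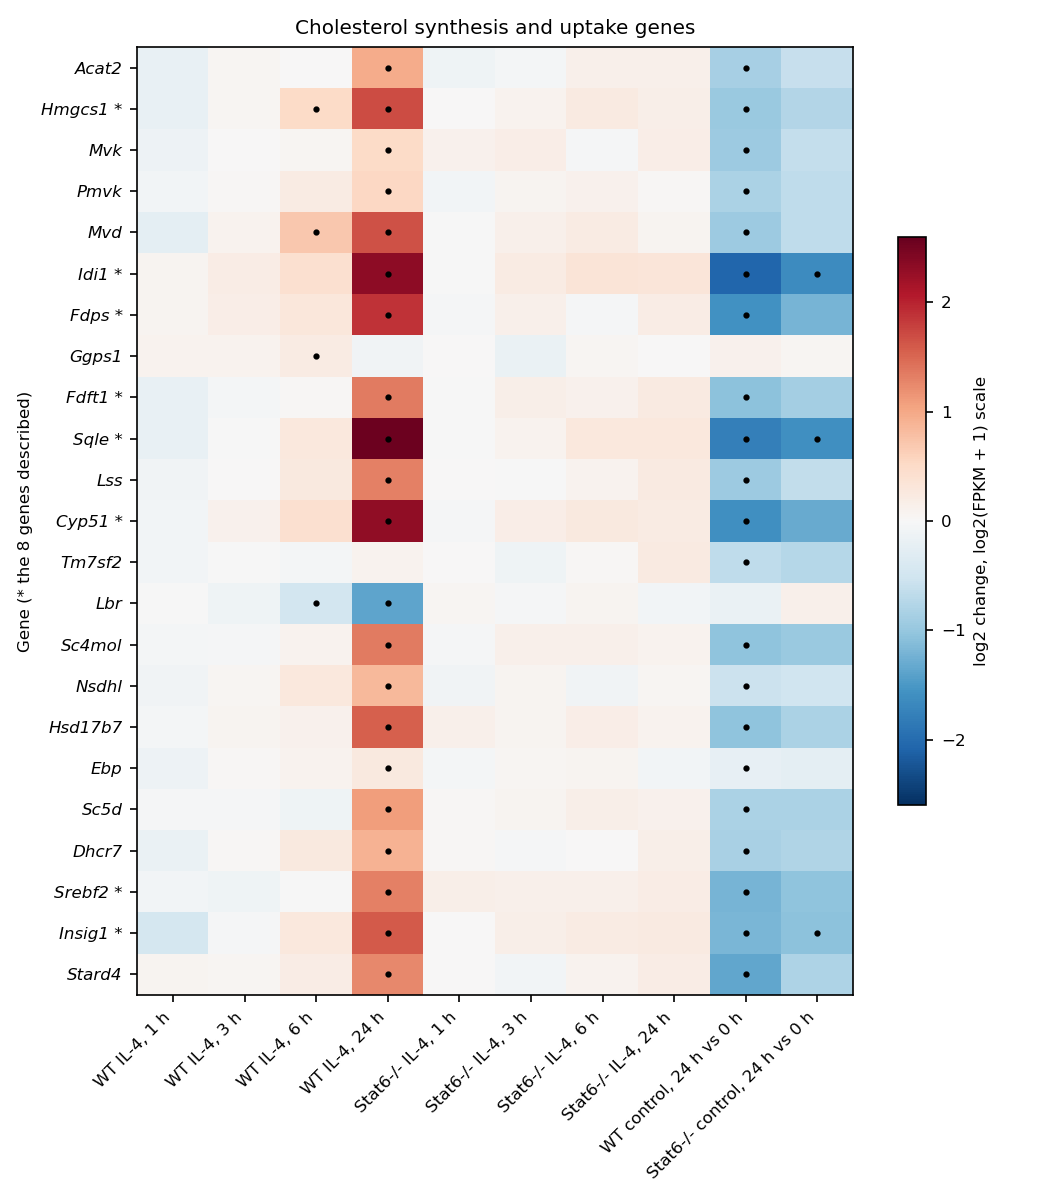
Change with IL-4 in mean log2(FPKM + 1), by time and genotype (columns), for the 8 genes (starred) and other genes of cholesterol synthesis and uptake (rows), with the change of the 24 h against the 0 h control in the last columns; dots mark an adjusted p under 0.05. In WT the 24 h column is positive for most synthesis genes. In Stat6-/- 0 of the genes shown passed the test with IL-4, and neither did any other locus.

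Among 5 tested genes of cholesterol uptake and transport, 3 were higher and 0 lower at 24 h in WT, against 23.4% and 31.6% of all loci. The higher ones included Stard4, a carrier of cholesterol between membranes (1.24, SE 0.22, limma, adjusted p = 1.18e-05) and Tmem97 (0.99, SE 0.09, adjusted p = 1.50e-11). Of 5 genes of the machinery that holds and cleaves SREBP, 2 were higher and 1 lower, which is not far from those shares. Srebf1, the gene for SREBP1, rose by 0.57 (SE 0.11, adjusted p = 3.35e-05), from 12.3 to 14.4 FPKM to 18.6 to 21.9 FPKM. Insig2 rose early, by 0.62 at 3 h (SE 0.06, adjusted p = 2.45e-10) and 0.69 at 6 h (SE 0.06, adjusted p = 1.37e-11), and was only 0.18 higher at 24 h (adjusted p = 0.0226). Its 3 h samples held 12.3 to 14.1 FPKM untreated and 18.3 to 21.9 FPKM with IL-4. Scap was lower by a small margin at 24 h (−0.19, SE 0.07, adjusted p = 0.012).

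Fatty acid synthesis is controlled by SREBP1 and in part by SREBP2. Of its 11 genes tested at 24 h in WT, 7 were higher and 1 lower, against 23.4% and 31.6% of all loci. Scd2, a stearoyl-CoA desaturase, rose by 2.93 (SE 0.26, limma, adjusted p = 7.58e-12), from 6.16, 6.05, 4.94 and 6.15 FPKM to 74.3, 35.1 and 50.2 FPKM. Its 24 h control was not past the test against 0 h (−0.16, adjusted p = 0.695). Fads2, the delta-6 desaturase, rose by 1.56 (SE 0.15, adjusted p = 3.41e-11) and Fasn, the fatty acid synthase, by 1.20 (SE 0.11, adjusted p = 1.48e-11), while Lpin1, a phosphatidate phosphatase, was higher at 6 h (1.00, SE 0.33, adjusted p = 0.0142) and not past the test at 24 h (0.38, adjusted p = 0.373).

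Of 9 tested genes of oxysterol synthesis and LXR signalling, 1 was higher and 4 lower at 24 h in WT, against 23.4% and 31.6% of all loci. These counts are not far from those shares. Each of the 4 fell by at least 2-fold. Ch25h, which makes 25-hydroxycholesterol, was highest at 1 h, when 0 of the 8 genes passed the test. Its 1 h samples held 1.52, 1.95, 1.03 and 0.891 FPKM untreated and 60.9, 61.2, 64.2 and 47.8 FPKM with IL-4 (change 4.68, SE 0.50, limma, adjusted p = 2.60e-09). The change was 3.58 at 3 h and 2.12 at 6 h, and at 24 h the samples held 0.0693 to 0.410 FPKM in both groups. Abca1, the cholesterol efflux pump and an LXR target, fell by 1.53 at 3 h and by 1.84 at 24 h (SE 0.20 and 0.22, adjusted p of 7.54e-08 and 5.43e-09), from 46.5 to 59.7 FPKM to 11.1 to 18.6 FPKM at 24 h. Mylip, an LXR-induced ubiquitin ligase, fell by 1.37 at 1 h (SE 0.35, adjusted p = 0.00675) and by 1.73 at 24 h (SE 0.38, adjusted p = 0.000235), and Apoe, the apolipoprotein secreted by macrophages, fell by 1.43 at 24 h (SE 0.18, adjusted p = 1.68e-08). Untreated WT cells held more Abca1 and Mylip at 24 h than at 0 h, by 1.30 and 1.39 (adjusted p of 1.50e-05 and 0.00549). In Stat6-/- cells 0 genes of any of these lists passed the test with IL-4 at any time. Since 0.0% of all loci did, that count says nothing particular about these genes. Single libraries differed. At 3 h Ch25h held 2.18 FPKM untreated and 7.83 FPKM with IL-4 in replicate 2, and 0.237 and 0.0711 FPKM in replicate 1.

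**Figure D5:**
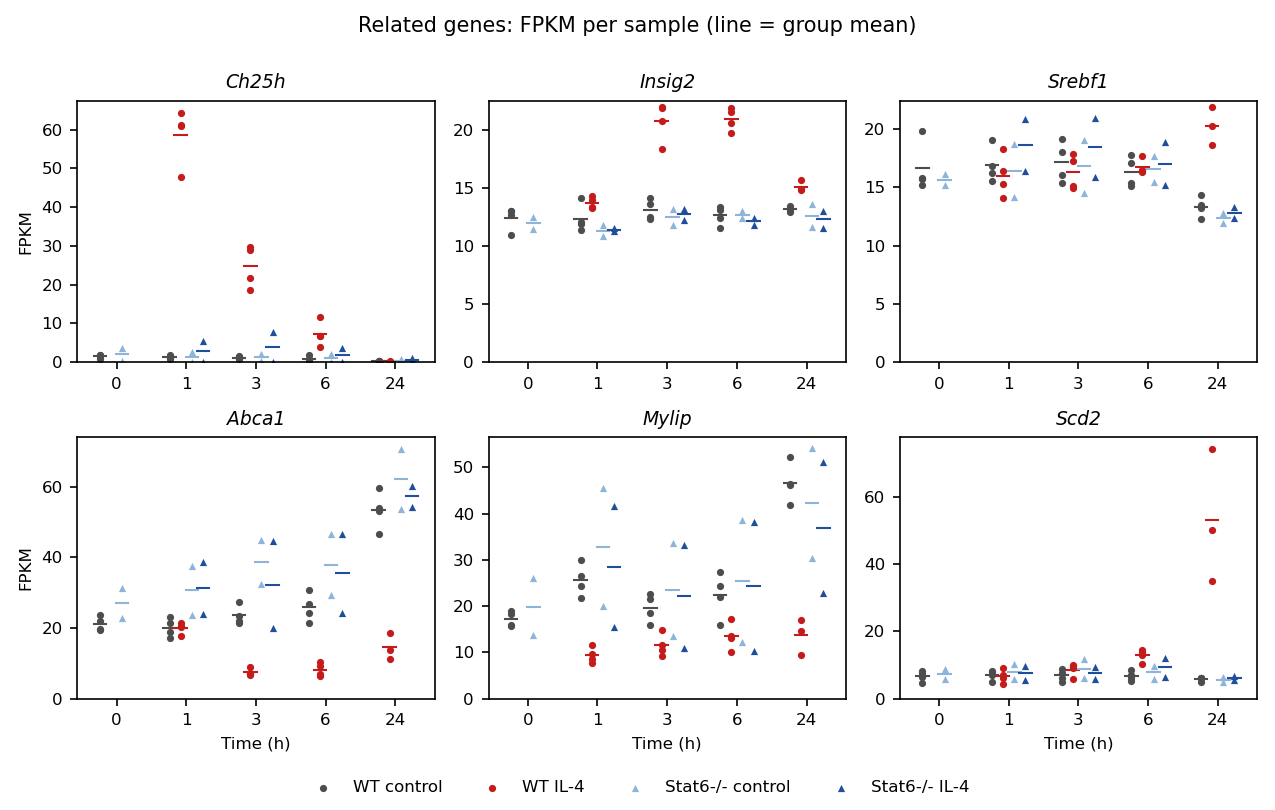
FPKM against time (0, 1, 3, 6 and 24 h at equal steps) for related genes named in the text, 1 panel each with its own axis from 0, in WT and Stat6-/- BMDMs with and without IL-4; points are samples and short lines mark group means. Ch25h peaks at 1 h of IL-4 in WT (47.8 to 64.2 FPKM), Abca1 and Mylip are low in WT with IL-4 at 24 h, and Scd2 is high there.

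Of the tested loci outside the 8, those whose 18 group means most resembled the average of the 8 included Sc4mol (Pearson r = 0.990), Hsd17b7 (0.976), Lss (0.975), Acat2 (0.974), Sc5d (0.970), Nsdhl (0.962), Stard4 (0.962) and Fads2 (0.942). Stard4 and Fads2 are in the lists of uptake and of fatty acid synthesis, and the others named are in that of cholesterol synthesis. This ranks groups that share libraries, and no test goes with it.

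The marker lists moved with treatment as well. Their counts below stand beside 31.6% of all loci lower and 23.4% higher with IL-4 in WT at 24 h. Neutrophil markers summed to 404.2 to 550.2 FPKM in the 24 h WT controls and to 195.0 to 287.4 FPKM with IL-4, with 3 of 5 lower by the test, and to 538.2 to 782.5 FPKM in Stat6-/- at 24 h. Macrophage markers summed to 3274 to 3773 FPKM in the 24 h WT controls and to 2604 to 2626 FPKM with IL-4, with 4 of 6 lower. Of 8 cell-cycle markers 5 were lower and 1 higher, with a median change of −0.83, yet their sum was 164.4 to 241.6 FPKM untreated and 276.8 to 317.2 FPKM with IL-4. The sum mostly follows Pcna, which ran from 72.5 to 264.6 FPKM over all samples, while no other of these markers exceeded 40.0 FPKM (Top2a). The part of the marker lists in the changes of the 8 genes was not tested.

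On mm10 coordinates counted from 1, as the tables give them, the loci are chr13:119690462-119708077 (Hmgcs1, plus strand), chr15:59315092-59331193 (Sqle, plus), chr13:8885606-8892396 (Idi1, plus), chr3:89093588-89101967 (Fdps, minus), chr14:63145150-63177793 (Fdft1, minus), chr5:4080674-4104697 (Cyp51, minus), chr5:28071412-28078662 (Insig1, plus) and chr15:82147269-82204960 (Srebf2, plus). All are protein-coding genes of the GENCODE annotation. Fdft1 overlaps Ctsb and Cyp51 overlaps Akap9 on the opposite strand, and Hmgcs1 and Idi1 overlap opposite-strand transcripts. No source used here says that strand was used in counting, and without it reads from such overlaps cannot be told apart. Srebf2 also hosts the microRNA Mir33.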

How the data were processed

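RNA-seq was read from 53 samples in 18 groups set by genotype, treatment and time in the labels. The authors prepared poly-A libraries from total RNA, sequenced paired reads, mapped them to mm10 with TopHat2 (2.0.7) and computed FPKM values with Cufflinks (2.0.2), as the submitters' processing notes give them, and deposited 1 FPKM table per sample. The annotation they used is not given in the sources used here. FPKM is relative within a sample, so a shift in a few abundant genes moves all others.

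Tables were joined on locus and symbol. Loci at 1 FPKM or more in at least 1 sample were tested (11146 of 23847) on log2(FPKM + 1) with limma 3.58.1 in R 4.3.3, one mean per group, 35 residual degrees of freedom, a mean-variance trend, two-sided, with Benjamini-Hochberg adjustment within each comparison and a threshold of 0.05. The study's own test was a 2-way ANOVA with Tukey's test and a 2-fold criterion, which was run as an alternative. The script was tested on simulated data. Depth relative to the median sample came from 7647 low loci (99.9% of 1378 sample pairs within 2%). Absolute depth is not known and single values carry no counting interval.

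The 8 genes, the lists and the markers were chosen with earlier results of these data known. Named beside the 8 were Stat6, Ch25h, Srebf1, Insig2, up to 4 genes of each list with the largest WT change past the test, and the 10 loci most like the mean of the 8. Some genes these rules name are not reported here. The marker sums were named after their values were seen. The comparisons of 24 h IL-4 with 0 h, of the Stat6-/- controls over time and of the genotypes at 24 h were added after seeing the data. Other alternatives were the pseudocount 0.1, no filter, 2 other scalings, a replicate block, smaller fits and leaving out each sample. WT replicate 1 with IL-4 at 24 h is not analysed here.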

Additional observations from a re-analysis of the deposited data

Results flagged for a closer look

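Of 64 groups of 4 WT samples tested with Dixon's criterion, 4 held a sample far from the other 3, where chance gives about 1 in 20 groups (3.2 expected). Hmgcs1 was at 18.27 FPKM in replicate 4 of the 3 h control, against 22.02 to 22.21 FPKM in the others. Sqle was at 4.775 FPKM in replicate 3 of the 24 h control, against 3.966 to 4.032 FPKM. Idi1 was at 16.93 FPKM in replicate 2 at 0 h, against 13.76 to 14.23 FPKM. Insig1 was at 16.94 FPKM in replicate 4 with 3 h of IL-4, against 16.19 to 16.29 FPKM.

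The response to IL-4 at 24 h was larger in WT than in Stat6-/- for all 8 genes by the test of the difference itself, with differences on the log2(FPKM + 1) scale of 1.55 for Hmgcs1, 2.27 for Sqle, 2.01 for Idi1, 1.69 for Fdps, 1.12 for Fdft1, 2.10 for Cyp51, 1.36 for Insig1 and 1.12 for Srebf2.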

How the results depend on the processing

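Counts of the 8 genes past the test are given here. The response to IL-4 in WT at 24 h (8), the fall of the WT controls by 24 h (8) and the 0 counts in Stat6-/- with IL-4 were the same under every alternative run. Fitting only the groups compared gave 1 gene in WT with IL-4 at 1 h, 6 at 6 h, 1 in the WT control at 1 h against 0 h and 0 in the Stat6-/- control at 24 h against 0 h. Fitting WT samples only, chosen after seeing the data, gave 1, 5 and 1 for the first 3 of these, 1 for the WT control at 6 h against 0 h and 5 for WT with 24 h of IL-4 against 0 h. Quantile normalization and median-of-ratios scaling each gave 1 for the Stat6-/- control at 24 h against 0 h, and the ANOVA with Tukey's test gave 0 for WT at 6 h. Leaving out 1 sample at a time gave 0 to 3 for the Stat6-/- control at 24 h against 0 h, 2 to 3 for 24 h of IL-4 against 0 h and 7 to 8 for the difference between genotypes at 24 h. A lone Stat6-/- sample was then assumed to vary like the other groups. The cause of these shifts was not tested.

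Leaving out 1 sample also turned the sign of 5 changes, none past the test. The ranges were −0.069 to 0.37 for Hmgcs1, −0.046 to 0.67 for Idi1 and −0.074 to 0.46 for Srebf2 with IL-4 in Stat6-/- at 24 h, and −0.0055 to 0.49 for Idi1 and −0.014 to 0.18 for Srebf2 for 24 h of IL-4 against 0 h. The median over all loci for that last comparison was −0.089, and 0.021 after quantile normalization. The other 96 member changes were those at 1 to 6 h not given 1 by 1 and those of the untreated genotypes at 24 h. In 1360 refits of them, 147 changed sign, 0 of them past the test, and 1 refit passed the test.

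With the replicate block the counts were 1 in WT at 1 h, 3 at 6 h, 1 in the WT control at 1 h against 0 h, 5 for 24 h of IL-4 against 0 h and 8 for the Stat6-/- control at 24 h against 0 h. Same-numbered WT samples deviated together in 13 of 15 pairs by a correlation over 0.1 (0.0265 to 0.561), 29 of 35 WT samples correlated best with their own number, and the 2 Stat6-/- replicates gave 0.791 to 0.900, all over 0.1. The other 2 WT pairs were under 0.1, and no source used here says that a number marks 1 animal across the times. For WT, the study describes the fold changes of its time course as averages over individual animals. That wording points to the same animals at each time without saying so. The pairing thus has some backing from the data and from that wording, but it is not stated, and the fit without it stayed the main one. The choice sets several counts. Without the block they were 1 in WT at 6 h, 3 for 24 h of IL-4 against 0 h and 3 for the Stat6-/- control at 24 h against 0 h. If a number does mark 1 animal, the main fit treats repeated samples of that animal as independent, and its SEs do not allow for this. With the block the SEs were smaller. That of Idi1 with IL-4 in Stat6-/- at 24 h was 0.21 against 0.40, and that of Srebf2 in WT 0.094 against 0.21. In the comparisons the block covers, the main fit may thus have missed changes. The differences between genotypes in the response kept their counts with the block (0 at 1, 3 and 6 h and 8 at 24 h). The direct comparisons of the genotypes at 0 and 24 h had no block, because the numbers are nested in genotype.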
